A study of Rattus norvegicus with 24 samples.

Results

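The genes described here are the histone lysine methyltransferases and demethylases of the rat urethra. They were picked by gene symbol from the deposited table, as the Kmt2, Kmt5, Kdm, Setd, Setdb, Ehmt, Ezh, Nsd and Suv39h families together with Dot1l, Ash1l and Jmjd1c. The rule found 47 of the 32883 genes in the table, 28 methyltransferases (writers) and 19 demethylases (erasers). Setdb2 was listed more than once and its row with the highest mean was used. Setd9 and Suv39h1 were not analysed here. Kdm4d was at 0 in all 24 samples, so 46 members passed the filter on low values and were tested.

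Urethras came from 12-week-old virgin female Sprague-Dawley rats that had all undergone simulated vaginal delivery (SVD), which is a crush of the pudendal nerve followed by vaginal distension. Rats then received an intra-aortic injection of saline, of allogeneic mesoangioblasts (MABsallo) or of allogeneic mesoangioblasts that overexpress VEGF (MABsallo-VEGF). Mesoangioblasts are vessel-associated progenitors, here a cell line grown from the hind-limb muscle of another rat, sorted on alkaline phosphatase, and marked with a lentiviral eGFP and luciferase reporter under the CMV promoter. In the MABsallo-VEGF groups a lentiviral vector expressed VEGF and a truncated CD34 from the SFFV promoter in the cells, not in the host, and the labels give the genotype as VEGF OE, against WT in the other groups. Tissue was taken 3d or 7d later, with 4 samples in each of the 6 groups, and a pair of the 7d MABsallo-VEGF samples is labelled as recovery. Markers of skeletal muscle, smooth muscle and urothelium were above 0 in every group. The whole urethra was sequenced, so RNA of injected and host cells is not separated, and fewer cells of a type cannot be told apart from less RNA per cell. The labels name separate samples and do not say more about their origin, so the p-values measure the spread between these samples, which may be technical.

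Histone lysine methyltransferases add methyl groups to lysines of histone tails and demethylases remove them. The lysine decides the meaning of the mark. Methylated H3K4 marks promoters and enhancers, H3K36 and H3K79 mark transcribed genes, and H3K9, H3K27 and H4K20 are best known from silent or compact chromatin. In skeletal muscle, which forms the outer sphincter of the urethra, satellite cells change H3K27 and H3K9 methylation as they leave quiescence and differentiate. The mRNA of these enzymes was measured here, not the marks.

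Values are normalized gene counts, that is reads per gene divided by the size factor of the sample, from libraries that read the 3ʹ end of each mRNA. They are written in order of replicate number (saline 6, 8, 9 and 10 at 3d, MABsallo and MABsallo-VEGF 1 to 4). Differences are on the log2(count + 1) scale with their standard error, and a gene was called when its adjusted p was below 0.05 and its log2 difference over 1 in limma fitted to all 24 samples. Samples held 2170695 to 10166052 reads. The 3d samples of the cell groups were the shallowest, with 2170695 to 4491900 reads for MABsallo and 3042531 to 4261098 for MABsallo-VEGF, against 4851797 to 5249467 for saline. One read was worth 1.67 to 9.23 normalized counts. In a principal component analysis of the 500 most variable genes, saline 3d replicate 6 lay near the cell-treated samples and MABsallo-VEGF 3d replicate 4 near the saline samples. Counts of called members that rest on them are given with and without these 2 libraries. They were singled out because they lay near the other group, so leaving them out widens the differences between cell and saline groups by construction, and the values without them are descriptions. Saline 3d replicate 8, with a score of -52.3 on the first component, lay within the range of the 7d samples (-55.8 to -26.6) and was kept in those fits.

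At 3d, writers and erasers stood higher in MABsallo than in saline urethras, and the median difference of the writers was highest over those of H3K4. Of the 46 members, 16 rose and none fell, where 9.40% of the 16287 genes tested rose and 2.86% fell. The 16 were 11 of 28 writers and 5 of 18 erasers. The median log2 difference was 0.92 over writers and 0.60 over erasers, against 0.07 over all genes. An unadjusted p below 0.05 was reached by 28 members, and 37 of 46 were higher. In 19 members the lowest MABsallo sample exceeded the highest saline sample, against 9.44% of all genes. edgeR called 13 members up (5.29% of genes) and DESeq2 16 (8.65%). The 16 of DESeq2 were 10 writers and 6 erasers, so they are not the same 16 as in limma. Without the 2 libraries that stand apart the count in limma was 19, all up (13.8% of genes), and all 16 of limma were among them. Under scaling to the same total, which moves the median of all genes from 0.07 to -0.19, 10 members rose (6.77% of genes) and none fell. The share of all called genes that were up went from 76.7% to 51.9% with that scaling, to 56.2% with quantile normalization and to 64.2% in edgeR.

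The calls were made with the spread pooled over the 6 groups, and the spread differed between groups. The SD of the mean log2 value over the writers was 0.61 in saline and 0.32 in MABsallo at 3d, and 0.16 in saline at 7d. The part of this in the calls was not tested. A fit of the 8 samples alone called 5 genes of the whole table and no member, with 27 members at an unadjusted p below 0.05. Single libraries also moved the count, to 4 without saline replicate 8 (1.89% of genes), 8 without MABsallo replicate 1 (3.65%), and 9 without either saline replicate 9 (5.24%) or MABsallo replicate 3 (4.54%). Kmt2b, Kmt2c, Setd1b and Setd3 were called in every one of the 8 fits that leave out 1 of these samples.

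**Figure D1:**
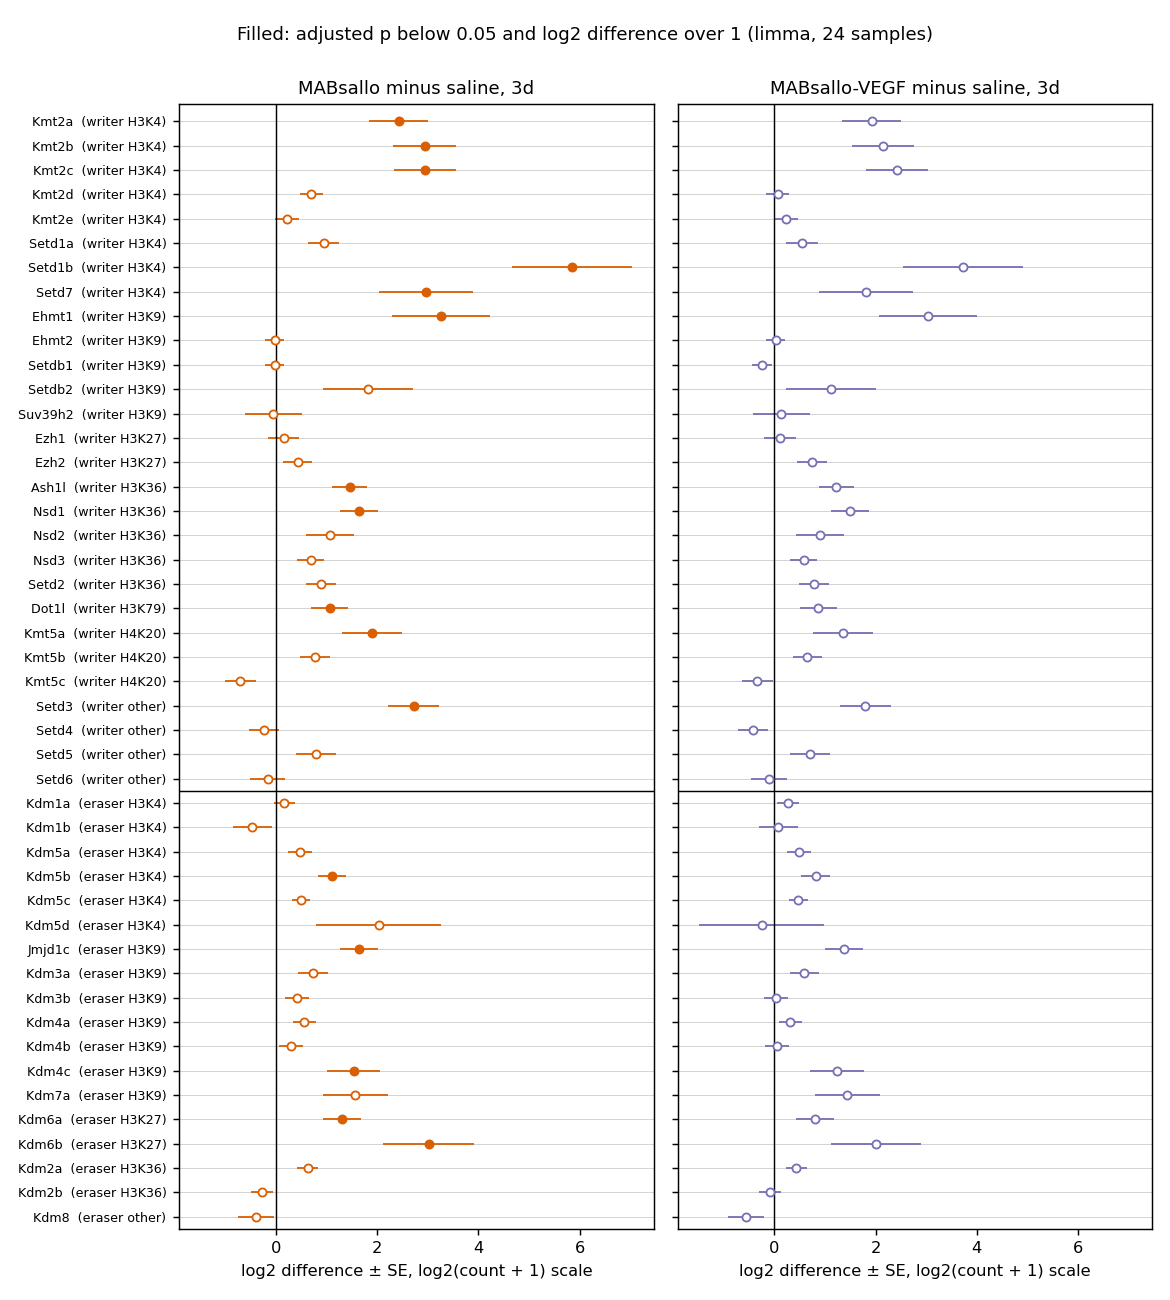
Log2 difference from saline at 3d (x axis, log2(normalized gene count + 1) scale) with its SE for each of the 46 members tested, MABsallo on the left and MABsallo-VEGF on the right, writers above the line and erasers below it, grouped by the lysine. Filled points were called. The MABsallo panel holds 16 filled points, all right of 0, and the MABsallo-VEGF panel none, although 39 of its 46 points lie right of 0.

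H3K4 writers are the catalytic subunits of the COMPASS and MLL complexes, the monomethyltransferase Setd7 and Kmt2e, a relative whose own activity is doubtful. All 8 were higher in MABsallo urethras and 5 of them rose, with a median log2 difference of 2.69, and with scaling to the same total 7 were higher. Setd1b (ENSRNOG00000001337), a COMPASS subunit that trimethylates promoters, had 55.1, 0, 7.15 and 0 normalized counts in the saline samples, 362, 317, 665 and 65.1 in the MABsallo samples and 103, 108, 227 and 4.45 in the MABsallo-VEGF samples. Every MABsallo sample lay above every saline sample, a pair of which were at 0, so the difference of 5.85 ± 1.19 (SE, adjusted p = 0.00668) rests on 18 reads in all 4 saline samples against 193 in MABsallo. Kmt2c (ENSRNOG00000061080), which monomethylates enhancers, showed 1047, 74.5, 332 and 429 normalized counts in the saline samples, 3699, 1756, 2502 and 2474 in the MABsallo samples and 2482, 2400.3, 2538 and 610.0 in the MABsallo-VEGF samples. MABsallo did not overlap saline, while MABsallo-VEGF replicate 4 fell within the saline range. The difference was 2.95 ± 0.61 (SE, adjusted p = 0.00712).

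Kmt2a (ENSRNOG00000015133), or MLL1, maintains Hox gene expression and is needed by muscle satellite cells. It had 1722, 157, 658 and 711 normalized counts in the saline samples, 5581, 2440.0, 2926 and 2696 in the MABsallo samples and 3217, 2750.4, 3415 and 868 in the MABsallo-VEGF samples. Saline replicate 6 was the highest of its group and replicate 8 the lowest of the 4, and MABsallo still lay above all of them (2.43 ± 0.58, adjusted p = 0.0124). Its close relative Kmt2b had 199.7, 19.6, 96.5 and 84.5 normalized counts in the saline samples, 817, 531, 665 and 412 in the MABsallo samples and 281, 517, 590.3 and 151 in the MABsallo-VEGF samples, again with no overlap of MABsallo and saline (2.94 ± 0.62, adjusted p = 0.00718). Setd7, which also methylates nonhistone proteins and acts with MyoD in muscle differentiation, had 134, 35.3, 17.9 and 17.6 normalized counts in the saline samples, 227, 328, 480.0 and 179 in the MABsallo samples and 189, 192, 217 and 31.2 in the MABsallo-VEGF samples. Its difference was 2.97 ± 0.93 (SE, adjusted p = 0.0356), but only 2 of the 8 fits without 1 sample called it. The other H3K4 writers, Setd1a (0.95), Kmt2d (0.70) and Kmt2e (0.23), stayed under a log2 difference of 1.

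Of the 5 H3K9 writers, 1 rose. Ehmt1 (GLP, ENSRNOG00000007242) and Ehmt2 (G9a, ENSRNOG00000030630) form the heterodimer that dimethylates H3K9 in euchromatin, and G9a is known to restrain myogenic differentiation. Ehmt1 had 89.5, 3.92, 28.6 and 21.1 normalized counts in the saline samples, 469, 213, 268 and 92.2 in the MABsallo samples and 303, 217, 358 and 53.4 in the MABsallo-VEGF samples. Ehmt1 was singled out by the study on these same samples. The lowest MABsallo sample lay just above the highest saline sample, replicate 6, and 3 of the 8 fits without 1 sample called it (3.27 ± 0.97, adjusted p = 0.0276). Ehmt2 had 1236, 1376, 1097 and 1319.6 normalized counts in the saline samples, 1498, 952, 1191 and 1362 in the MABsallo samples and 1249, 1225, 1508 and 1153 in the MABsallo-VEGF samples. The 3 groups overlapped throughout, and its difference was -0.02 ± 0.19 (SE, adjusted p = 0.95). Setdb1 (-0.02) and Suv39h2 (-0.04), which trimethylate H3K9, were near 0. Setdb2 did not overlap saline but missed the threshold (1.83 ± 0.89, adjusted p = 0.161).

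Promoter windows of 37 of the 46 tested members were found in RefSeq (assembly GRCr8, 250 bases before to 50 after the gene start). A GC box (GGGCGG on either strand, the core letters bound by Sp1-type factors) was present in 28 of the 37, against 34.9% of all 27457 windows of this length. It was present in all 12 called members with a window and in 16 of the 25 not called. The other motifs searched on both strands were rarer. The ETS core CCGGAAG was present in 5 of the 37 against 9.22% of all windows, the cAMP response element TGACGTCA in 1 against 1.91%, and the E box CACGTG in 3 against 6.65%. The median number of CpG dinucleotides was 40.5 in the called, 27 in the not called and 7 in all windows. The windows of Setd1b, Ehmt1 and Kmt2c, the members with the largest differences in MABsallo-VEGF, and that of Ehmt2, the partner of Ehmt1 that was not called, are printed 5ʹ to 3ʹ with the GC boxes in capitals. Capitals that run on mark boxes that touch or overlap.
Setd1b, chr12:39081822-39082121, minus strand: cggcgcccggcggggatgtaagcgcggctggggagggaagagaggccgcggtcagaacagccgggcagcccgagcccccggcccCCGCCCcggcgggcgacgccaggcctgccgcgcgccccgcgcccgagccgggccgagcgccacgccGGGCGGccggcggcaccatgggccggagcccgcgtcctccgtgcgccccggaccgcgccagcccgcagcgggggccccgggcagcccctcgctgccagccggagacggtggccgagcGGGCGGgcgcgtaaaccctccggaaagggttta
Kmt2c, chr4:10354227-10354526, plus strand: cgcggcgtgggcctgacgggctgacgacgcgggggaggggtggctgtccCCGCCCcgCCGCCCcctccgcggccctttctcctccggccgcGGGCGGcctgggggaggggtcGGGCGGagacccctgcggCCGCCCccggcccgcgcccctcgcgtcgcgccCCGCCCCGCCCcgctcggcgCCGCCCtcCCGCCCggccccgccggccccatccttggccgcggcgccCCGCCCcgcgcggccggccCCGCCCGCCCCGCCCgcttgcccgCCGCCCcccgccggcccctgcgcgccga
Ehmt1, chr3:28127077-28127376, minus strand: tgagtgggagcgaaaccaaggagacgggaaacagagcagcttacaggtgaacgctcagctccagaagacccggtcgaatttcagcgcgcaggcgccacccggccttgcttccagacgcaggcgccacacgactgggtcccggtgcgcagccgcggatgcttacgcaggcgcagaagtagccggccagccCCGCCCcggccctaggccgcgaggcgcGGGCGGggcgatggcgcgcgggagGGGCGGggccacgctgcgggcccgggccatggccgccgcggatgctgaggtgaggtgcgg
Ehmt2, chr20:3940661-3940960, minus strand: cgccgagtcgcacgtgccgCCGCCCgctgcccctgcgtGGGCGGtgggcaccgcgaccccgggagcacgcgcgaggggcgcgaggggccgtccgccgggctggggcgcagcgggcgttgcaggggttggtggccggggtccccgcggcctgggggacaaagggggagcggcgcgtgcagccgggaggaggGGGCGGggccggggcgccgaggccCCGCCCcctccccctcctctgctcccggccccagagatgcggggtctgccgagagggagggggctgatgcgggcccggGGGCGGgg
The windows hold 3, 14, 3 and 5 GC boxes in this order, and Ehmt2 holds the motif as well as Ehmt1.

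The H3K27 writers Ezh1 and Ezh2 are the catalytic subunits of the polycomb repressive complex PRC2, and neither was called. Ezh1 had 1181, 1415, 1597 and 1341 normalized counts in the saline samples, 2386, 809.7, 1680.2 and 1698 in the MABsallo samples and 2212, 1050.1, 1751 and 1175 in the MABsallo-VEGF samples, and its difference was 0.16 ± 0.31 (SE, adjusted p = 0.77). Ezh2 had 1443, 741, 558 and 605 normalized counts in the saline samples, 1207, 826, 1099 and 1096 in the MABsallo samples and 1027, 2275, 1201 and 1015 in the MABsallo-VEGF samples, with saline replicate 6 above all MABsallo samples (0.43 ± 0.29, adjusted p = 0.312). The groups overlapped for both genes. Both H3K27 demethylases rose. Kdm6a (UTX, ENSRNOG00000052721), part of the MLL3 and MLL4 complexes and required in satellite cells for muscle regeneration, had 603, 294, 339.5 and 377 normalized counts in the saline samples, 1065, 843, 1135 and 846 in the MABsallo samples and 919, 900.1, 964 and 263 in the MABsallo-VEGF samples. The study named this gene too from these samples. MABsallo lay above every saline sample, while MABsallo-VEGF replicate 4 was the lowest of the 12 samples (1.31 ± 0.38, adjusted p = 0.0258). Kdm6b (JMJD3, ENSRNOG00000037613), an inflammation-induced demethylase also needed in satellite cells, had 51.6, 11.8, 14.3 and 35.2 normalized counts in the saline samples, 504, 295, 378 and 27.1 in the MABsallo samples and 146, 183, 252 and 13.4 in the MABsallo-VEGF samples. MABsallo replicate 4 lay inside the saline range and the other 3 far above it (3.02 ± 0.89, adjusted p = 0.0273).

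**Figure D2:**
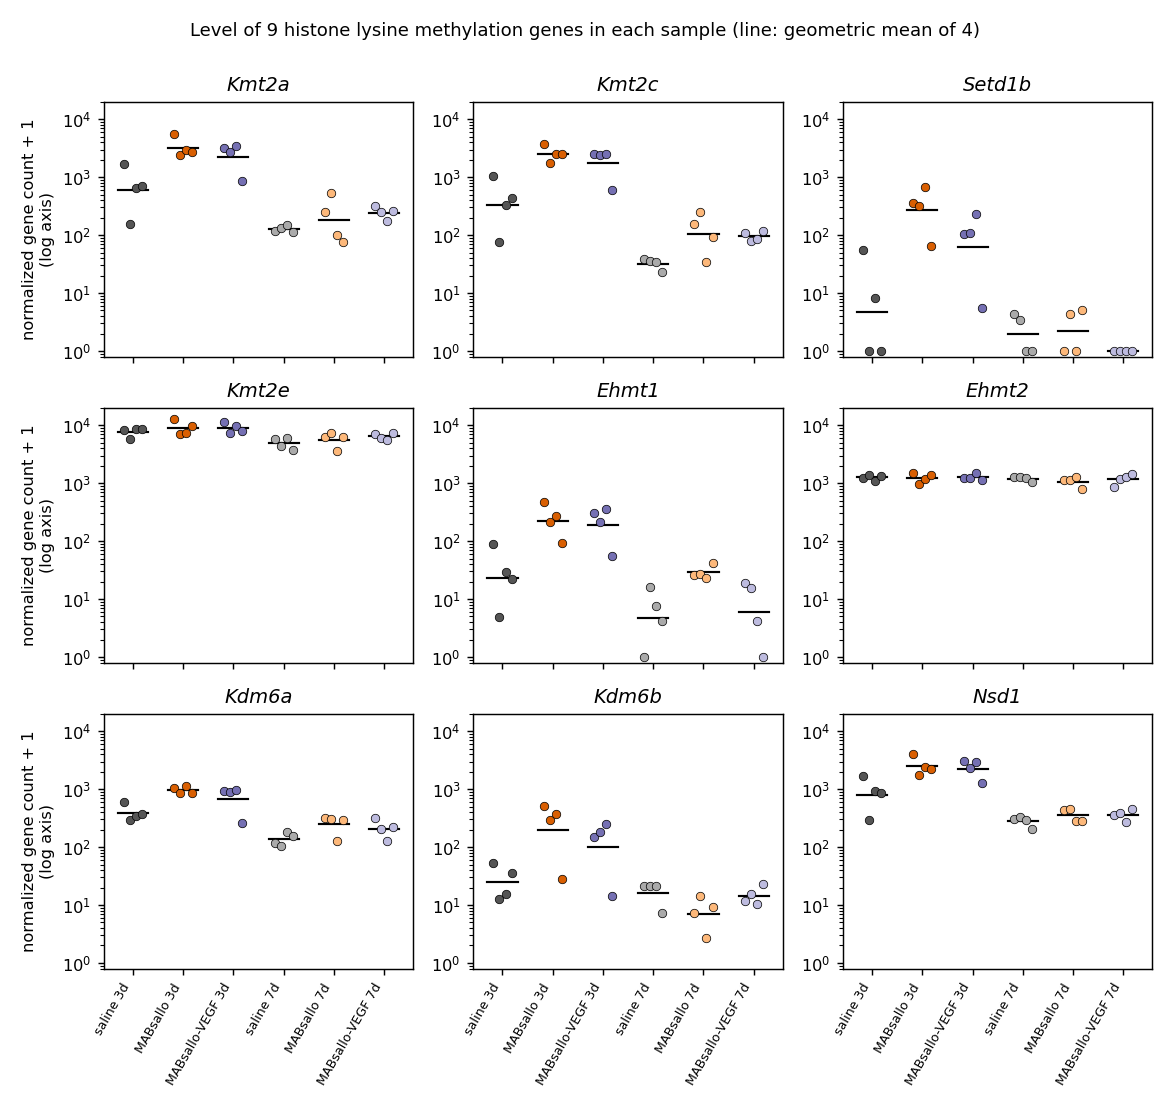
Normalized gene count + 1 (log axis) of 9 members in each of the 24 samples, by treatment and day, with a line at the geometric mean of the 4 samples. The lines of Kmt2a, Kmt2c, Setd1b, Ehmt1, Kdm6a, Kdm6b and Nsd1 are highest in the 3d cell groups, where MABsallo-VEGF replicate 4 lies below its group, and all samples of Ehmt2 lie between 801 and 1508.

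Among H3K36 writers, all 5 were higher, also with scaling to the same total and with quantile normalization, and 2 rose. Nsd1 (ENSRNOG00000016680), which dimethylates H3K36, had 1715, 298, 939.9 and 855 normalized counts in the saline samples, 4026, 1762, 2446 and 2268 in the MABsallo samples and 3028, 2309, 2886 and 1278 in the MABsallo-VEGF samples. MABsallo and saline did not overlap, though by a narrow margin, since saline replicate 6 had 1715 and the lowest MABsallo sample 1762 (1.64 ± 0.38, adjusted p = 0.0103). Ash1l, a trithorax-group H3K36 methyltransferase, went from 1556–6184 in saline to 7718–16401 in MABsallo (1.46 ± 0.34, adjusted p = 0.0117). Setd2, the enzyme that trimethylates H3K36 and travels with RNA polymerase, differed by 0.89, and Nsd2 and Nsd3 by 1.07 and 0.69. Dot1l, the H3K79 methyltransferase, rose by the smallest called margin (1.07 ± 0.36, adjusted p = 0.0486), and 3 of the 8 fits without 1 sample called it. Neither edgeR nor DESeq2 called Dot1l. Setd3, an actin histidine methyltransferase that carries a SET domain, rose by 2.72 ± 0.51 (SE, adjusted p = 0.0059), from 62.7–544 in saline to 667–1348 in MABsallo.

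H4K20 writers split. Kmt5a, which lays down the monomethyl mark, had 427, 39.2, 122 and 95.01 normalized counts in the saline samples, 632, 427, 535 and 266 in the MABsallo samples and 422, 433, 434 and 107 in the MABsallo-VEGF samples, and saline replicate 6 lay inside the MABsallo range (1.90 ± 0.59, adjusted p = 0.0356). It was called in 2 of the 8 fits without 1 sample, and edgeR and DESeq2 called no H4K20 writer. Kmt5b and Kmt5c take the mark to the di- and trimethyl state. Kmt5b differed by 0.78. Kmt5c had 437, 611, 689.7 and 785 normalized counts in the saline samples, 433, 301, 277 and 575 in the MABsallo samples and 406, 442, 399 and 801 in the MABsallo-VEGF samples, the most negative difference of any member in MABsallo, and did not pass the test (-0.70 ± 0.31, adjusted p = 0.123). Setd4, which has a role in cell quiescence, had 417, 498, 608 and 412 normalized counts in the saline samples, 504, 383, 323 and 439 in the MABsallo samples and 465, 158, 308 and 712 in the MABsallo-VEGF samples. Its differences were -0.23 in MABsallo and -0.42 in MABsallo-VEGF, and its groups overlapped.

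Of 7 H3K9 erasers, all were higher, also with both of these scalings, and 2 rose. Jmjd1c, a JmjC protein related to the H3K9 demethylase Kdm3a, went from 854–3691 in saline to 4649–10238 in MABsallo. The lowest MABsallo sample exceeded the highest saline sample (1.65 ± 0.38, adjusted p = 0.00964). Kdm4c, a demethylase of H3K9 and H3K36, had 179, 35.3, 71.5 and 91.5 normalized counts in the saline samples, 341, 197, 249 and 184 in the MABsallo samples and 341, 133, 298 and 97.96 in the MABsallo-VEGF samples and narrowly passed (1.54 ± 0.53, adjusted p = 0.0495), in only 1 of the 8 fits without 1 sample. Kdm7a did not pass (1.58 ± 0.63, adjusted p = 0.091). Of the 6 H3K4 erasers 1 rose, with a median of 0.49 over all 6. Kdm5b, a repressor of H3K4 trimethylated promoters, went from 737–1687 in saline to 1794–4927 in MABsallo (1.11 ± 0.28, adjusted p = 0.0154).

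The flavin-dependent demethylase Kdm1b, which removes H3K4 methylation, had 158, 188, 239 and 320.2 normalized counts in the saline samples, 312, 159, 73.9 and 174 in the MABsallo samples and 335, 100.01, 202 and 419 in the MABsallo-VEGF samples, and its difference was -0.46 ± 0.39 (SE, adjusted p = 0.435). Kdm2b, the H3K36 demethylase that recruits a polycomb complex to CpG islands, had 689, 866, 1022 and 975 normalized counts in the saline samples, 1143, 579.9, 545 and 770.3 in the MABsallo samples and 876, 658, 827 and 979.6 in the MABsallo-VEGF samples (-0.27 ± 0.21, adjusted p = 0.394). Kdm8, whose activity on histones is disputed, had 158, 404, 272 and 267 normalized counts in the saline samples, 199, 175, 185 and 249.5 in the MABsallo samples and 351, 75.01, 187 and 196 in the MABsallo-VEGF samples (-0.38 ± 0.35, adjusted p = 0.481). These 3 erasers had negative differences, and for each the MABsallo and saline samples overlapped. Kdm5d, the Y-linked H3K4 demethylase, had at most 4 reads in any of the 3d samples. Its values were 0, 11.8, 0 and 0 normalized counts in the saline samples, 7.10, 0, 36.9 and 10.8 in the MABsallo samples and 5.41, 0, 0 and 0 in the MABsallo-VEGF samples, and no direction can be read at this depth.

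**Figure D3:**
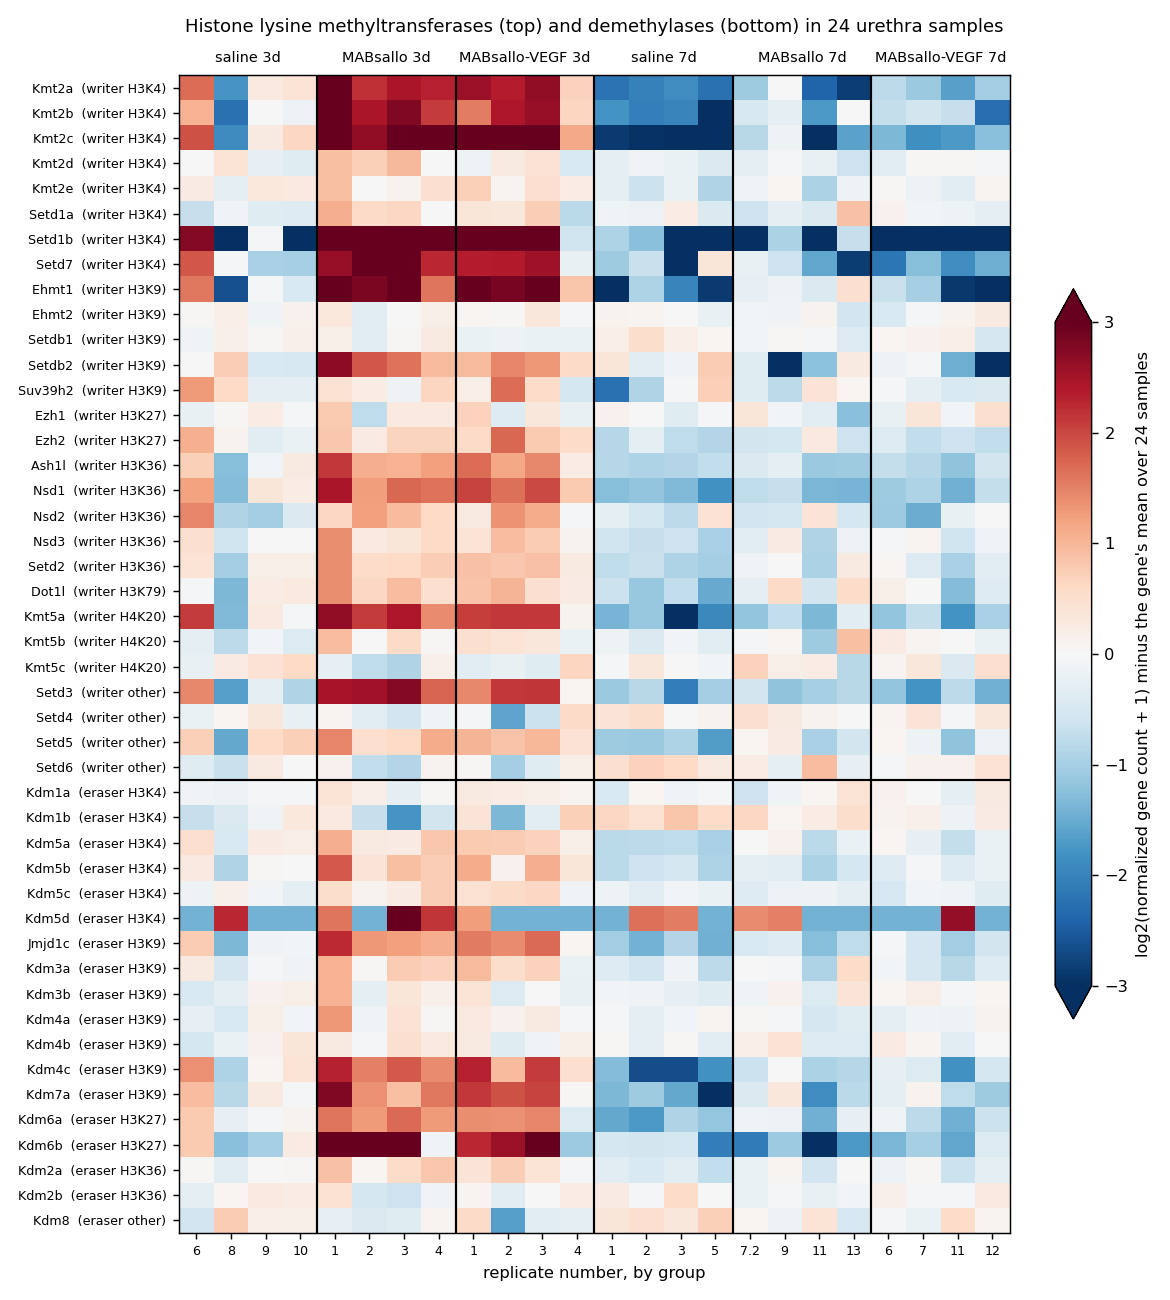
Log2(normalized gene count + 1) of each of the 46 members (rows, writers above the line, erasers below, with the lysine in brackets) in the 24 samples (columns, by group and replicate number), minus the mean of the member over all samples. Colours are capped at 3 in either direction. Red columns are those of the 3d cell groups and of saline 3d replicate 6, and MABsallo-VEGF 3d replicate 4 is paler than its group.

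The members varied together between samples of a group. In saline at 3d, replicate 6 was the highest of 4 for 24 of the 46 members (32.4% of all genes) and replicate 8 the lowest for 26 (31.0%). MABsallo replicate 1 was the highest for 33 (32.2%), and MABsallo-VEGF replicate 4 the lowest for 33 (30.2%). The same held at 7d, where a single sample was the lowest for 25 members in saline (replicate 5, 21.4%), for 24 in MABsallo (replicate 11, 24.0%) and for 24 in MABsallo-VEGF (replicate 11, 26.8%). In saline urethras at 7d, the 16 members called in MABsallo had a median of 59.4 normalized counts, against 631 for the 30 not called. The ranges overlapped, at 1.47 to 2091 for the called and 3.54 to 4993 for the others.

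Markers of other cell types moved in the same comparison. At 3d, 5 of 6 mast cell, 4 of 6 macrophage and 2 of 4 fibroblast markers fell and 2 of 5 skeletal muscle markers rose in MABsallo against saline. Summed macrophage markers ranged from 9204 to 21229 normalized counts in saline and from 1001 to 9432 in MABsallo, and skeletal muscle markers from 41936 to 168791 and from 75574 to 339416. Mast cell markers summed to 572 to 2140.1 in saline, 235 to 369 in MABsallo and 178 to 642 in MABsallo-VEGF, and 2 of the 6 were at 0 in all MABsallo samples. Fibroblast markers summed to 260184 to 388823 in saline and to 36757 to 206260.3 in MABsallo, and none of the fibroblast, macrophage or skeletal muscle markers measured was at 0 throughout a group. Ribosomal protein genes took 5.39 to 6.81% of reads in saline and 3.57 to 5.66% in MABsallo. Small noncoding RNA genes took 0.00796 to 0.0160% in saline, 0.0194 to 0.102% in MABsallo and 0.0119 to 0.0342% in MABsallo-VEGF, and the saline and MABsallo samples did not overlap. With all libraries thinned to the lowest depth, 39 of 46 members were higher in MABsallo, with a median log2 difference of 0.71 against 0.79 at full depth, and 10 were called (6.48% of genes). The part of cell composition and RNA quality in the members' differences was not tested.

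In MABsallo-VEGF urethras at 3d the members again stood above saline, but none was called by limma or edgeR, where 0.0307% of genes rose. An unadjusted p below 0.05 was reached by 22 members, and 39 of 46 were higher, with medians of 0.76 over writers and 0.46 over erasers against 0.04 over all genes. DESeq2 called 7 (2.24% of genes). This comparison uses the same 4 saline samples as that of MABsallo. Setd1b (3.73 ± 1.19, adjusted p = 0.123), Ehmt1 (3.03 ± 0.97, adjusted p = 0.124), Kmt2c (2.42 ± 0.61, adjusted p = 0.0753), Kmt2b (2.14 ± 0.62, adjusted p = 0.0952), Kdm6b (2.01 ± 0.89, adjusted p = 0.232) and Kmt2a (1.92 ± 0.58, adjusted p = 0.109) had large positive differences, and Kdm8 (-0.56), Setd4 (-0.42), Kmt5c (-0.33) and Kdm5d (-0.25) the most negative. Single libraries moved the count from 0. Without saline replicate 6 there were 12 calls (6.29% of genes), without MABsallo-VEGF replicate 4 there were 11 (6.70%), and without both there were 19 (11.4% of genes). Of these, 18 were also called in MABsallo without these libraries.

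Without both libraries, Setd1b differed by 6.09 ± 0.995 (SE), Ehmt1 by 4.28 ± 1.03 and Kmt2c by 3.48 ± 0.58 in MABsallo-VEGF, and Ezh2 by 1.16 ± 0.29. These values carry no p, since the libraries left out were chosen for their distance from their groups. The direct comparison of MABsallo-VEGF with MABsallo at 3d called no member and 1 gene of the table (0.00614%). The only member with an unadjusted p below 0.05 was Kmt2d (-0.63 ± 0.23, adjusted p = 0.658). edgeR and DESeq2 called none. Standard errors of this comparison ran from 0.18 to 1.23 over the members, which sets the size of difference between the cell products that could be detected.

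Paralogues were compared within samples, as the log2 ratio of the counts (1 added to each) of 14 pairs. The Ehmt1 to Ehmt2 ratio averaged -5.75 ± 1.81 (SD, n = 4) in saline, -2.46 ± 0.97 in MABsallo and -2.75 ± 1.12 in MABsallo-VEGF. The Setd1a to Setd1b ratio went from 7.14 ± 3.00 in saline to 2.23 ± 1.12 in MABsallo, and the Kmt2c to Kmt2d ratio from -2.10 ± 1.81 to 0.15 ± 0.56. Setd1b had 18 reads in all 4 saline samples and as few as 0 in a sample, so its saline ratio depends on the 1 added. In MABsallo the ratios of Kmt2c to Kmt2d, Setdb1 to Setdb2 and Kdm2a to Kdm2b did not overlap those of saline, and in MABsallo-VEGF that of Setdb1 to Setdb2 did not. The two-sided exact permutation test of 4 against 4 samples gave its smallest possible p of 0.0286 for these 4 ratios. None of the 28 tests passed the adjustment (lowest adjusted p 0.16). A p of 0.0286 can pass it only where most of the 28 tests reach that value, so the adjusted result cannot decide on single pairs.

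Writers were set against erasers in each sample as the difference of their mean log2(count + 1). It was -0.06 ± 0.48 (SD, n = 4) in saline, 0.41 ± 0.15 in MABsallo and 0.38 ± 0.30 in MABsallo-VEGF at 3d. At 7d it was -0.43 ± 0.28, -0.26 ± 0.18 and -0.46 ± 0.13. The 8 cell-treated samples of 3d lay between 0.09 and 0.73 and all 12 samples of 7d below 0, while the saline samples of 3d spread from -0.56 to 0.57. Kdm5d, with at most 4 reads in any 3d sample, is among the erasers averaged and lowers their mean. Whether a sample lies above or below 0 can therefore depend on that gene. For H3K4 alone, Kdm5d was left out of the erasers. Writers minus these erasers were at -1.69 ± 0.84 in saline, 0.33 ± 0.56 in MABsallo and -0.51 ± 0.91 in MABsallo-VEGF at 3d. In saline at 7d the value was -2.90 ± 0.42. Setd1b was kept among the H3K4 writers. It had 18 reads in all 4 saline samples of 3d and at most 1 read in each library at 7d. It lowers the mean of the writers there, so the differences in the H3K4 score depend in part on that gene. As sums of counts, writers held 1.87 ± 0.17 times the erasers in saline, 1.98 ± 0.05 in MABsallo and 1.96 ± 0.03 in MABsallo-VEGF at 3d, and 1.63 ± 0.09, 1.69 ± 0.07 and 1.68 ± 0.06 at 7d. These scores are descriptions and carry no test.

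**Figure D4:**
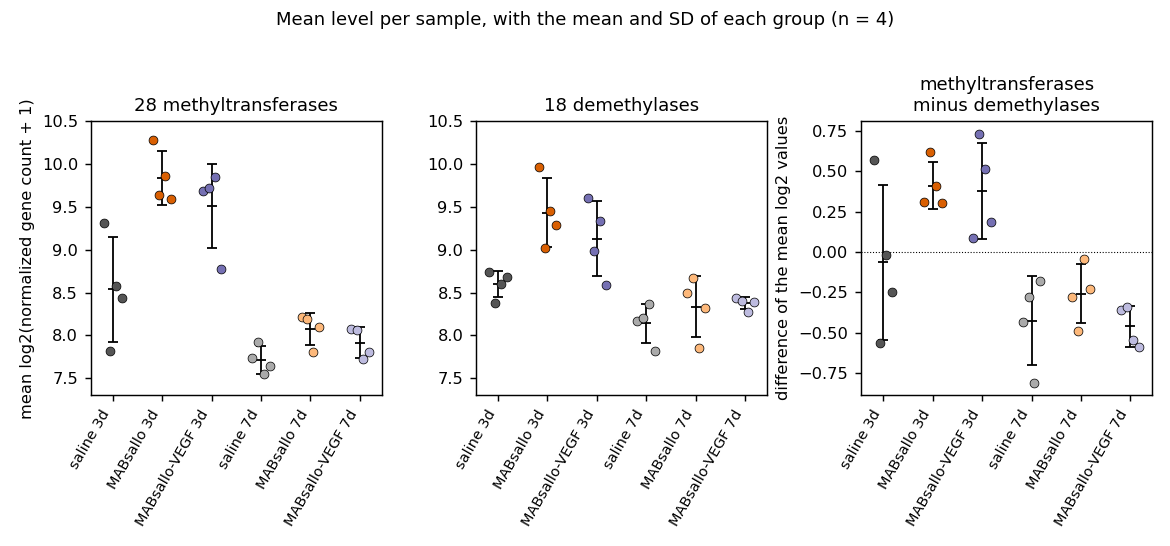
Mean log2(normalized gene count + 1) over 28 methyltransferases (left) and 18 demethylases (middle) and their difference (right) in each of the 24 samples, with the mean and SD of each group of 4. The mean of writers is 9.84 in MABsallo and 8.54 in saline at 3d and 7.72 to 8.08 in the 3 groups of 7d. The 18 demethylases include Kdm5d, which lowers their mean. The left and middle axes start at 7.3.

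At 7d no member was called by limma, edgeR or DESeq2 in MABsallo against saline, in MABsallo-VEGF against saline or between the cell groups, nor was any gene of the table by limma (0%). An unadjusted p below 0.05 was reached by 11, 7 and 1 members, and the median log2 differences were 0.21, 0.18 and 0.00. A p that misses the threshold does not show equal levels. Kmt2b, Kdm4c, Ehmt1 and Dot1l were higher in MABsallo than in saline without overlap (3.24% of genes), each with an adjusted p of 0.732 in limma. Setdb1 was lower without overlap (1.63% of genes), at 369–503 normalized counts against 513–709. In MABsallo-VEGF, Kdm3b, Kdm5a, Kdm5b, Kmt2a, Kmt2c and Nsd3 were higher than saline without overlap (2.92% of genes) and Kdm1b lower (3.12%). Setd1b ranged over 0–3.38 with saline, 0–4.15 with MABsallo and 0 with MABsallo-VEGF at 7d, at most 1 read in each library, and Kmt2c over 22.01–37.2 with saline, 33.4–248 with MABsallo and 77.02–117 with MABsallo-VEGF. The difference of a cell effect between 3d and 7d was tested as an interaction and no member or gene passed (0%) for MABsallo (13 members at an unadjusted p below 0.05) or MABsallo-VEGF (5). edgeR called none, and DESeq2 called 1 for MABsallo and none for MABsallo-VEGF. Without the 2 libraries that stand apart, 5 members were called in each interaction, all with a larger difference at 3d, where 3.02% of genes were for MABsallo and 3.16% for MABsallo-VEGF.

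The members were also compared between the days within a treatment. In MABsallo, 19 members were higher at 3d than at 7d (17.0% of genes) and 1, Kdm1b, was lower (-1.04 ± 0.39, adjusted p = 0.0447, 6.05% of genes). In MABsallo-VEGF 20 were higher (13.1%). In both cell groups 17 members were called, and the share of all genes called in both is not given. Kmt2a fell from 2440.0–5581 at 3d to 74.7–533 at 7d in MABsallo (4.16 ± 0.58, adjusted p = 6.66e-05, 3d minus 7d), and Nsd1 from 1762–4026 to 278–457 (2.82 ± 0.38, adjusted p = 6.17e-05). Kdm6b went from 27.1–504 to 1.67–13.2 (4.82 ± 0.89, adjusted p = 0.000447). Ehmt1 in MABsallo-VEGF went from 53.4–358 to 0–18.1, and Setd1b from 4.45–227 to 0 in all 4 samples. Ezh2, the proliferation-linked PRC2 enzyme, was higher at 3d in MABsallo-VEGF (1.53 ± 0.29, adjusted p = 0.00085).

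Saline urethras differed between the days in fewer members. At 3d, 6 members were higher than at 7d (2.59% of genes) and none lower, and all 6 were also called in both cell groups. They were Kmt2c (3.34 ± 0.61, adjusted p = 0.0091), Kdm4c (2.34 ± 0.53, adjusted p = 0.0196), Kmt2a (2.23 ± 0.58, adjusted p = 0.0337), Kmt5a (2.16 ± 0.59, adjusted p = 0.042), Nsd1 (1.52 ± 0.38, adjusted p = 0.0275) and Kdm6a (1.496 ± 0.38, adjusted p = 0.0316). At 7d with saline, Kmt2c had 37.2, 34.8, 33.5 and 22.01, Kmt2a 115, 132, 147 and 113, Nsd1 301, 324, 295 and 208 and Kdm6a 118, 105, 184 and 154 normalized counts. Kdm4c had 27.1, 9.96, 10.05 and 18.9 and Kmt5a 37.2, 44.8, 10.05 and 25.2. All saline 3d samples of Kmt2c, Kmt2a, Kdm4c and Kdm6a lay above these. The count rested on single libraries. It was 0 without saline 3d replicate 6 (0.0798% of genes), 2 without replicate 9 (0.908%), 1 without replicate 10 (0.602%) and 15 without replicate 8 (6.76%). It was 2 without 7d replicate 2 (1.39%) and 1 without either 7d replicate 3 (0.737%) or 5 (0.178%). Without the 2 libraries that stand apart 1 member was called (0.129% of genes).

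Genes that work with these enzymes were counted by role in the same fit of MABsallo against saline at 3d, to be read against the 9.40% of all genes that rose. Of 12 subunits of the COMPASS and MLL complexes, which hold the Kmt2 and Setd1 enzymes, 2 rose and the median log2 difference was -0.01, and edgeR and DESeq2 each called 1. The subunits called by limma were Hcfc1 (4.21 ± 1.37, adjusted p = 0.0411), which edgeR and DESeq2 also called, and Pagr1 (3.38 ± 1.01, adjusted p = 0.0294). Pagr1 averaged only 1.72 normalized counts in saline and 18.2 in MABsallo. It did not pass in edgeR (adjusted p = 0.125) and had no adjusted p in DESeq2. Of 9 PRC2 subunits, the partners of Ezh1 and Ezh2, 4 rose and the median was 1.01, and edgeR and DESeq2 each called 3. Suz12 (2.50 ± 0.71, adjusted p = 0.0235), which the enzymes need for activity, Aebp2 (2.40 ± 0.82, adjusted p = 0.0486) and Jarid2 (2.09 ± 0.67, adjusted p = 0.0378), accessory subunits, had the largest differences. Of 8 partners and readers of H3K9 methylation 1 rose, the heterochromatin protein Cbx1 (1.55 ± 0.43, adjusted p = 0.0212), a share near that of all genes. Cbx1 did not pass in edgeR (adjusted p = 0.103) or DESeq2 (adjusted p = 0.0515). In this list edgeR called none and DESeq2 1, Atf7ip (1.004, adjusted p = 0.00625), which limma did not call. None of 6 subunits of the LSD1-CoREST complex was called by limma, where 3 had an unadjusted p below 0.05, or by edgeR, while DESeq2 called 1. The largest difference was that of Rcor3 (2.34 ± 0.81, adjusted p = 0.0537).

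Among SET domain genes outside the rule, 3 of 15 rose (edgeR called 2 and DESeq2 4), and the muscle-specific Smyd1 did not pass (2.09 ± 0.78, adjusted p = 0.0688). Among JmjC genes outside the rule, 1 of 11 rose, Jmjd4 (4.08 ± 1.21, adjusted p = 0.0275), a share near that of all genes. Jmjd4 did not pass in edgeR (adjusted p = 0.0912) or DESeq2 (adjusted p = 0.0973). In this list edgeR called 1 gene, which was not Jmjd4, and DESeq2 none. In the methionine cycle, which supplies and clears the methyl donor, Mtr, the methionine synthase, rose (2.12 ± 0.57, adjusted p = 0.0182) and Ahcy, which hydrolyses the product that inhibits methyltransferases, fell (-1.14 ± 0.38, adjusted p = 0.0453), and the remaining 6 of 8 genes did not pass. In this cycle edgeR called none and DESeq2 2.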

How the data were processed

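Urethral RNA of 24 samples was read with Lexogen QuantSeq 3ʹ libraries. The authors aligned with HISAT2 and counted with HTSeq and deposited normalized counts, that is gene counts divided by size factors (unit signal). Dividing each sample by the value of 1 read gave whole reads for 100% of values (tolerance 0.001), and these recovered reads gave the depths. Genes with a mean of at least 2 normalized counts (16287) were fitted on log2(count + 1) in limma 3.58.1 (R 4.3.3) with trend, all 6 groups in 1 fit, Benjamini-Hochberg adjustment over all genes, and calls at an adjusted p below 0.05 and a log2 difference over 1. The 1 added on this scale is less than the value of 1 read, so the differences of low genes depend on it. In MABsallo against saline at 3d, Jmjd4 differed by 4.08, against 2.89 in edgeR and 3.08 in DESeq2. Smyd1 differed by 2.09, against 2.04 and 2.17. edgeR 4.0.16 and DESeq2 1.42.0 on recovered reads, other scalings, filters, weights, thinning and fits without samples were alternatives. On data simulated for MABsallo against saline at 3d (16287 genes, 200 changed by a log2 of 2), limma recovered 186 and called 28 unchanged genes, edgeR 176 and 7, and DESeq2 175 and 14. Of the unchanged genes called, 12 in limma had a mean below 20, and 0 in edgeR and DESeq2. The simulation gave all genes the same dispersion and held no library that stands apart, so the error rates in the real samples can differ. Members and lists were chosen with earlier results of these data known. Values in every sample are given for the 6 members with the largest rise and the 4 with the largest fall in each cell group at 3d, members called in another comparison with at most 6 calls, Ehmt1 and Kdm6a, and 3 paralogue pairs. Partner lists show at most 3 examples, those of the largest absolute difference. Promoters are from RefSeq (GRCr8), which is not the build of the deposited table, and no coordinates were taken from the latter.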

Additional observations from a re-analysis of the deposited data

Results flagged for a closer look

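Of 138 groups of 4 samples examined for the named members and the scores, 15 held 1 sample whose gap to the nearest of the others was, relative to the range of the group, over Dixon's critical value for 4 samples, where chance alone flags about 1 in 20. MABsallo-VEGF 3d replicate 4 was that sample in 7 of them. It had 868 normalized counts of Kmt2a against 2750.4 to 3415 in the others, 610.0 of Kmt2c against 2400.3 to 2538, 263 of Kdm6a against 900.1 to 964, 107 of Kmt5a against 422 to 434, 31.2 of Setd7 against 189 to 217, and 801 of Kmt5c against 399 to 442. Its mean log2 value over the writers, 8.78 against 9.69 to 9.85, was also apart. In the same group Kdm5d had 5.41 in replicate 1 and 0 in the others.

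At 7d, MABsallo replicate 11 had 847 normalized counts of Ezh2, against 448 to 477 in the others, and 127 of Kdm6a, against 295 to 319. Saline replicate 5 had 6.29 of Kdm6b, against 19.9 to 20.3, and 6.29 of Kmt2b, against 22.4 to 27.1. MABsallo-VEGF replicate 12 had 18.9 of Kmt2b against 58.0 to 65.6, and MABsallo-VEGF replicate 11 had 15.5 of Kdm5d where the others were at 0. Saline 3d replicate 8 had 11.8 of Kdm5d and the others 0. The part of any library in these values was not tested.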

How the results depend on the processing

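The number of members called in MABsallo against saline at 3d stayed within 1.5 times of 16 under most settings. It was 10 with scaling to the same total and 10 with reads thinned to the lowest depth. It was 0 when only the 8 samples compared were fitted, where the spread comes from those groups alone. In MABsallo-VEGF against saline at 3d it was 1 with a pseudocount of 5 (1.09% of genes up), 14 with sample quality weights (7.55%), 7 with DESeq2 (2.24%) and 19 in 22 samples (without the libraries that stand apart). Between 3d and 7d in saline it was 12 with quality weights and 0 with only these groups. It was 10 with edgeR, 11 with DESeq2 and 1 in 22 samples (0.129% of genes up). For the interaction of MABsallo with day it was 3 with quality weights, 1 with DESeq2 and 5 in 22 samples (3.02%). For that of MABsallo-VEGF it was 2 with quality weights and 5 in 22 samples (3.16%). The causes of these shifts were not tested. Counts in this section without a share of genes show how the number of members moved, not whether members moved more than other genes. Leaving out 1 sample gave 4 to 18 calls in MABsallo, 0 to 12 in MABsallo-VEGF, 0 to 15 between days in saline, 17 to 22 in MABsallo and 15 to 23 in MABsallo-VEGF, 0 to 2 for the MABsallo interaction and 0 in the other comparisons. The medians ran from 0.74 to 1.03 over writers and 0.49 to 0.77 over erasers in MABsallo, and from 0.58 to 0.94 and 0.40 to 0.60 in MABsallo-VEGF. Over the named members and ratios, 426 values of other settings kept their direction and side of the threshold, 25 lost the threshold, 29 passed it and 14 changed sign, and of those without 1 sample 741, 37, 16 and 22 did. The values that changed sign were near 0 or rested on a few reads, and none was called. In MABsallo, Ezh1 was -0.12 with scaling to the same total and -0.059 with quality weights, and the ratio of Kdm5a to Kdm5c differed by 0.13 in 22 samples. In MABsallo-VEGF, Ehmt2 was -0.037 with quantile normalization, -0.21 with the same total, -0.068 in edgeR and -0.013 with thinned reads. Ezh1 was -0.13 with the same total. Kdm1b was -0.10 with quantile normalization, -0.16 with the same total, -0.074 with quality weights and -0.36 in 22 samples. Kdm5d was 0.77 with quality weights and 0.026 with thinned reads. Over the fits without 1 sample, Ehmt2 in MABsallo ran from -0.12 to 0.10, Ezh1 in MABsallo ran from -0.057 to 0.46, Ehmt2 in MABsallo-VEGF ran from -0.052 to 0.077, Ezh1 in MABsallo-VEGF ran from -0.089 to 0.27. In the same fits, Kdm1b in MABsallo-VEGF ran from -0.21 to 0.48, Kdm2b in MABsallo-VEGF ran from -0.20 to 0.023, Kdm5d in MABsallo-VEGF ran from -0.92 to 0.67, the ratio of Kdm5a to Kdm5c in MABsallo ran from -0.29 to 0.13. Likewise, the ratio of Kdm5a to Kdm5c in MABsallo-VEGF ran from -0.26 to 0.15, the ratio of Kdm4a to Kdm4b in MABsallo ran from -0.036 to 0.40, the ratio of Kdm1a to Kdm1b in MABsallo-VEGF ran from -0.22 to 0.51. MABsallo and MABsallo-VEGF at 3d share the replicate numbers 1 to 4. In fits of these groups alone, 0 genes were called with a replicate block and 0 without it, where the fit of all 24 samples called 1. An unadjusted p below 0.05 was reached by 1215 genes with the block and by 524 without it. Deviations of same-numbered samples correlated by 0.22, 0.15, 0.07 and 0.25. For replicates 1, 2 and 4 the own number gave the highest correlation. MABsallo-VEGF replicate 3 correlated more with MABsallo replicate 1 (0.20) than with its own number. The labels name no pairing and the main fit used none, so whether same-numbered samples are paired was not settled. The other comparisons share fewer than 2 numbers. Genes with a few reads per sample, such as Setd1b, Kdm5d and Ehmt1, have the least certain differences.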
